A study of Mus musculus with 9 samples.

Results

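Serpins are a superfamily of proteins built on a common fold, and 8 serpin genes are described here in 3T3 cells, a line of immortalised fibroblasts from mouse embryos. A total of 9 serpins had been named for this description with earlier results of the same arrays in view: Serpinf1, Serpinh1, Serping1, Serpina3n, Serpine2, Serpinb2, Serpinb10, Serpinb8 and Serpinb6a. A serpin was represented by the transcript cluster, the array's unit for a transcript, whose annotation lists that symbol alone. Serpine2, which encodes protease nexin-1, was not analysed here. The other 8 belong to 46 measured serpins among 19698 measured genes, so 38 further serpins served for comparison. The 8 genes were selected on their measured signals across the 3 groups, so their differences between groups are given as a description, and no test is read from them.

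The data were 9 arrays in 3 groups of 3. Control cells were left unstimulated or treated with tumour necrosis factor (TNF-α) at 5 ng/ml for 1 h, and BAF-knockdown cells received TNF-α in the same way. The knockdown cells stably expressed 1 short hairpin RNA, from a U6 promoter in a retroviral vector that also expresses green fluorescent protein, against a sequence that Brg1 and Brm share, and they had been sorted for high fluorescence. Brg1 and Brm are the alternative ATPase subunits of BAF, a complex that remodels nucleosomes. All cells were of the same line, and the sources do not say whether control cells carried a vector. Effects of the knockdown and of transduction and sorting therefore cannot be told apart. Knockdown cells without TNF-α were not analysed here. Replicates of a group were cultured on different days according to the methods, and values are log2 signals after RMA normalisation. Probes differ between genes, so levels are compared between arrays within a gene. The exceptions are the first quartile of all transcript clusters, used only as a coarse mark of dim genes, and signals summed over marker lists.

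Most serpins inhibit serine or cysteine proteases by offering a reactive loop as bait: once the protease cuts the loop, the serpin snaps into a new shape that traps the enzyme in a covalent complex. Some members have lost inhibition and act as chaperones or signalling proteins. Fibroblasts secrete several that act on complement, coagulation and the extracellular matrix, whereas clade B serpins lack a classical signal peptide and act largely within cells.

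Serpinb2, Serpinb10 and Serpinb8 lie next to each other on chromosome 1, and Serpinf1 lies on chromosome 11. Their upstream sequences are shown because these are the members with the lowest knockdown differences whose start regions could be read. Each line gives the 250 bases before the annotated start, 5′ to 3′ on the gene's strand, from RefSeq's GRCm38.p6 table, and capitals mark TGANTCA, a motif bound by AP-1 transcription factors.
Serpinf1, chr11:75422624-75422873, minus strand: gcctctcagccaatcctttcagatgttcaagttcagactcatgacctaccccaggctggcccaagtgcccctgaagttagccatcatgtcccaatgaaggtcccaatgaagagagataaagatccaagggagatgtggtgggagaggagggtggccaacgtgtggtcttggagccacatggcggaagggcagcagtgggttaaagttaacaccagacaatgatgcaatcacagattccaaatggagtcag
Serpinb2, chr1:107511173-107511422, plus strand: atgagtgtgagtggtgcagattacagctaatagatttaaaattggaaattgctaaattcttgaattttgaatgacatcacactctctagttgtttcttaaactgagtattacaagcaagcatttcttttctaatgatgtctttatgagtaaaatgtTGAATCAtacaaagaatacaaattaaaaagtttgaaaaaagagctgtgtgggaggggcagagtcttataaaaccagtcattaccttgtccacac
Serpinb10, chr1:107528753-107529002, plus strand: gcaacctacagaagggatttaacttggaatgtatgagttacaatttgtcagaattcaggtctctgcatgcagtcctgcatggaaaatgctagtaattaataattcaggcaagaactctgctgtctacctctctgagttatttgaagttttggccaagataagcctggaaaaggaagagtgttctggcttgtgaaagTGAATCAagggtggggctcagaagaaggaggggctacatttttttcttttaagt
Serpinb8, chr1:107589756-107590005, plus strand: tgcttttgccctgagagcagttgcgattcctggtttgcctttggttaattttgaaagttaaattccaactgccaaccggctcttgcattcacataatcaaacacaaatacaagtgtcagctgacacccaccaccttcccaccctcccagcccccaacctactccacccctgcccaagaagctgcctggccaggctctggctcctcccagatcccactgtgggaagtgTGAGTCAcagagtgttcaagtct
Windows from 250 bases before to 50 bases after the start were found for 7 of the 8 serpins, all but Serping1. TGANTCA, searched on both strands, was in the windows of Serpinb2, Serpinb10 and Serpinb8 and in no window of the other 4 serpins. It begins 94 bases before the start in the Serpinb2 sequence shown, 54 before it in Serpinb10 and 23 before it in Serpinb8, which has another match just inside the transcript. Of all 32851 windows in the table, 7.81% hold this motif. TATAAA on the sense strand was found only in Serpinb2, beginning 29 bases before the start, and in 8.32% of all windows. A match to the NF-kB motif, on either strand, was found only in Serpinh1, beginning 110 bases before its start, and in 8.46% of all windows. These matches describe letters and show no binding.

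CpG islands have been linked to weaker dependence on nucleosome remodelling, so base composition was read in the same windows. The GC content was 35.3% for the Serpinb2 window shown, 39.3% for Serpinb10, 50.7% for Serpinf1 and 53.3% for Serpinb8, against a median of 52.7% over all windows. A GC content over 50% together with an observed-to-expected CpG ratio over 0.6 was met by 1 of the 7 serpins, Serpinb6a, in the first of its windows (GC 55.7%, ratio 1.12). Serpinh1 had the highest GC content at 62.3% but a ratio of 0.549. Over the whole table, 33.3% of windows met both limits. The methods apply these limits to a region that reaches equally far on both sides of the start. The windows here lie mostly before it, so these results are not the paper's CpG island classes.

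Before the serpins are described, the treatment and knockdown were checked on their known targets. Tnfaip3, Nfkbia and Ccl2, early NF-kB targets, rose after TNF-α by 2.88, 1.38 and 2.33 on the log2 scale (limma, adjusted p = 0.000329, 0.000467 and 0.000891). Smarca4, the gene of Brg1, fell by 1.11 in the knockdown (SE 0.09, adjusted p = 0.00362), with arrays at 10.50, 10.64 and 10.25 against 11.57 ± 0.04 (SD, n = 3) in TNF-treated controls. Smarca2, the gene of Brm, differed by -0.36 ± 0.20 (SE, limma adjusted p = 0.734). With the replicate number added to the limma fit, the adjusted p was 0.129. All 3 knockdown arrays of Smarca2 lay below all TNF-treated control arrays. By quantitative RT-PCR, the paper reports reduced levels of both transcripts in knockdown cells. Its reductions are larger than those on these arrays, which were 2.15-fold for Smarca4 and 1.29-fold for Smarca2. Knockdown array 2 held the most Smarca4 of its group and stood nearest to the controls on the first principal component over all genes, at 4.0 against 17.8 and 22.6 for the other knockdown arrays and -19.8 to 1.94 for the controls. Fibroblast markers were at or above the first quartile of the array for 9 of 10 genes (Fap lay below it), and their summed signal was 63783 to 72104 in TNF-treated controls and 59184 to 61119 in knockdown cells. Of 13 measured leukocyte markers, 4 lay below that quartile (Ptprc, Adgre1, Itgam and Cd79a). The other leukocyte markers, among them Cd68, Csf1r and Cd14, and all 8 epithelial markers were at or above it. The quartile therefore does not separate cell types. Leukocyte markers summed to 2246 to 2323 in TNF-treated controls and 2250 to 2435 in knockdown cells. The part of these shifts in the serpin values was not tested, and fewer cells of a type and less RNA per cell cannot be told apart in such bulk samples.

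All 8 serpins had lower mean signals in BAF-knockdown cells than in TNF-treated control cells, and the differences spanned a wide range. They were -2.23 for Serpinb2, -1.94 for Serpinf1 and -1.85 for Serpinb10, then -0.46 for Serpinb8 and -0.45 for Serpina3n, and -0.16 to -0.13 for Serping1, Serpinb6a and Serpinh1. The median was -0.46 over the 8 serpins, 0.01 over all genes and -0.01 over the 38 other serpins. Of all genes, 45.5% had a difference below 0. A difference beyond -0.3, the size that the methods use for dependence on BAF, was reached by 5 of the 8 serpins and by 3.27% of all genes. The 3 knockdown arrays all lay below the 3 TNF-treated control arrays for 4 serpins, Serpinf1, Serpinb10, Serpinb8 and Serpinb6a, and for 5.47% of all genes. Because the serpins were selected with these values known, nothing is read from their counts against those shares.

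The limma fit called 0 of the 8 serpins lower in the knockdown at an adjusted p under 0.05, where it called 0.102% of all genes lower. At an unadjusted p under 0.05, 5 of the 8 serpins were lower, as were 4.75% of all genes. The 8 were selected on these same signals, so every fit outcome given for them describes the values and is no test. Nothing is read from their counts beside the shares of all genes. With the replicate number as a block, which compares arrays of the same number, Serpinf1 and Serpinb10 were called, along with 2.33% of all genes. These 2 serpins were also called without the block when knockdown array 2 was left out. Neither was called by the blocked fit when every array numbered 1, or every array numbered 3, was dropped. The methods' t-test, which they name for induced genes, was applied to the knockdown with p under 0.05 and a difference past 0.3, and it passed the same 2 serpins and 1.46% of all genes.

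TNF-α treatment for 1 h left most of the 8 serpins near their unstimulated signal. Serpinb2 was the only one past 0.35, the size that the methods use for induction, at 1.40, and 0.985% of all genes were past it. Serpinb10 differed by 0.29, and the remaining 6 lay between -0.11 and 0.08, with a median over the 8 of -0.03 against -0.00 over all genes. None was called higher by limma (0 of 8; 0.137% of all genes) or with the replicate block (0 of 8; 0.366% of all genes), and 0 of 8 had an unadjusted p under 0.05 in that direction (1.85% of all genes). No serpin of the 8 had its TNF-treated arrays all above its unstimulated ones, as 3.19% of all genes did. Here too the outcomes for the 8 selected serpins are a description and no test. Both comparisons use the same TNF-treated control arrays, so a high or low value there enters each with the opposite sign.

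**Figure D1:**
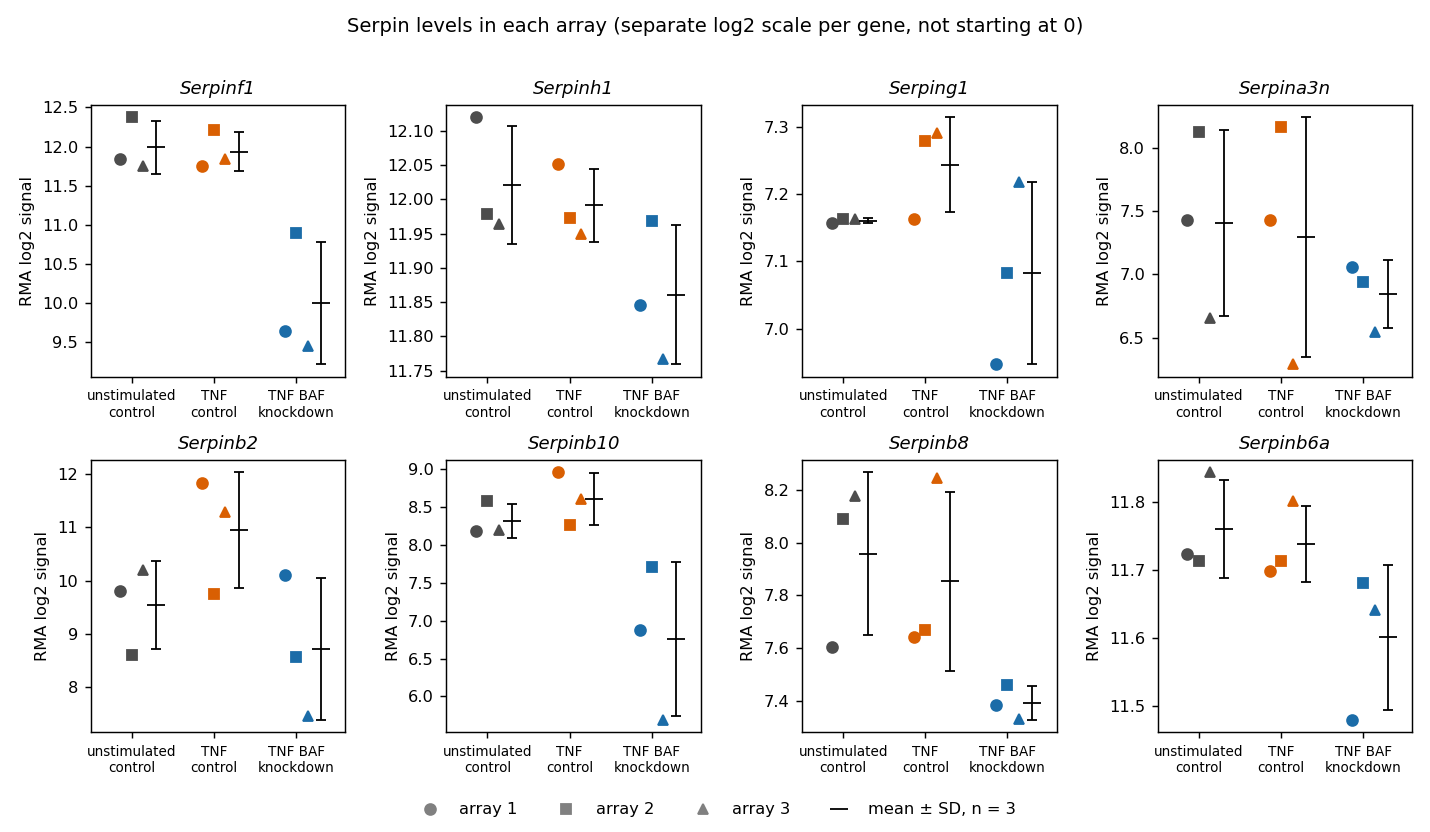
RMA log2 signal of the 8 serpins in each of the 9 arrays, with 1 panel and 1 log2 axis per gene. Circles, squares and triangles are arrays 1, 2 and 3 of each group, and the horizontal bar with whiskers is the mean ± SD (n = 3). Serpinf1 and Serpinb10 show 3 knockdown arrays below all 6 control arrays, Serpinb2 shows overlapping groups, and the axes of Serpinh1, Serping1 and Serpinb6a span less than 1 log2 unit.

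Among the secreted serpins, Serpinf1 encodes pigment epithelium-derived factor (PEDF), a non-inhibitory glycoprotein that restrains blood vessel growth and binds collagen. Its signal was 11.84, 12.38 and 11.75 in unstimulated control arrays 1, 2 and 3, and 11.75, 12.22 and 11.84 after TNF-α. In knockdown cells it was 9.64, 10.89 and 9.46. The control groups overlapped and array 2 was the highest of its group in all 3 groups, while every knockdown array lay below every control array. The means were 11.99 ± 0.34, 11.93 ± 0.25 and 9.999 ± 0.782 (SD, n = 3), so unstimulated and TNF-treated controls did not differ beyond their spread. TNF-treated knockdown cells were lower than TNF-treated controls by 1.94 ± 0.35 (SE), a 3.83-fold lower signal. By replicate number the difference was -2.11, -1.32 and -2.38. Without knockdown array 2 it was -2.38, and the smallest value on leaving out any 1 array was -1.67, without knockdown array 3.

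Serpinf2, which encodes α2-antiplasmin, the main plasma inhibitor of plasmin, is the neighbour of Serpinf1 on chromosome 11. Its TNF-treated control arrays were at 7.93, 7.93 and 7.88 and its knockdown arrays at 8.08, 7.99 and 7.70, a difference of 0.01 ± 0.09 (SE) that limma did not call (adjusted p = 0.991). The adjacent genes thus had differences of -1.94 and 0.01, without a test of the gap. Known receptors and partners of PEDF, a list of 7 genes that were all measured, were not called in either comparison by either fit, and 0 of 7 had an unadjusted p under 0.05. The largest differences in the knockdown were 0.07 for Plxdc1 and 0.04 for Lrp6, and after TNF-α -0.18 for Lrp5 and -0.10 for Lrp6. Plxdc1 is a reported PEDF receptor, and Lrp5 and Lrp6 are Wnt co-receptors.

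Serpinh1 encodes Hsp47, a chaperone of the endoplasmic reticulum that binds folded procollagen and has no known protease target. Its arrays were at 12.12, 11.98 and 11.96 in unstimulated controls, 12.05, 11.97 and 11.95 after TNF-α, and 11.85, 11.97 and 11.77 in the knockdown. The ranges met at knockdown array 2, which equalled its control array to 2 decimals. The difference was -0.03 ± 0.07 (SE) after TNF-α and -0.13 ± 0.07 in the knockdown, against a pooled SD within groups of 0.08.

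Hsp47 works beside a set of collagen chains, modifying enzymes and export factors, of which 24 of 25 listed genes were measured. In the knockdown 22 of the 24 differences lay below 0, with a median of -0.16 against 0.01 over all genes. limma called 0 of 24. At an unadjusted p under 0.05, 9 were lower and 1 higher, beside 935 lower and 726 higher of all 19698 genes. The blocked fit called 4 lower and 1 higher, beside 2.33% lower and 0.98% higher of all genes. Col3a1, a fibrillar collagen chain, fell from 10.41, 10.60 and 9.83 to 9.35, 9.54 and 9.17 (difference -0.93, blocked limma adjusted p = 0.0035). Every knockdown array of Col3a1 lay below every TNF-treated control array. Bmp1, the protease that removes the procollagen C-terminal propeptide, fell by 0.54 (blocked limma adjusted p = 0.00337). P3h4 and Mia3, which serve lysine hydroxylation and procollagen export, fell by 0.45 and 0.24 (blocked limma adjusted p = 0.0105 and 0.0345). P3h2, a prolyl 3-hydroxylase, rose from 8.49, 8.73 and 8.02 to 10.19, 9.59 and 10.14 (difference 1.56, blocked limma adjusted p = 0.0251). The blocked fit called 0 genes of the whole array in the knockdown without the arrays numbered 1, so these calls, and those of the other lists of related genes, were all lost there. After TNF-α neither fit called any of the 24, 0 had an unadjusted p under 0.05, and the largest differences were those of P3h2 (0.31) and Col1a1 (-0.21). Col1a1 and Col1a2 are also fibroblast markers, and among the markers S100a4 and Pdgfra fell by 1.18 and 0.57 in the knockdown (blocked limma adjusted p = 0.0245 and 0.00804).

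Serping1 encodes C1 inhibitor, which blocks the C1r and C1s proteases of complement and plasma kallikrein. Its unstimulated arrays were at 7.16, 7.16 and 7.16, its TNF-treated controls at 7.16, 7.28 and 7.29, and its knockdown arrays at 6.95, 7.08 and 7.22. The knockdown and TNF-treated control ranges overlapped, and 3 arrays held exactly the same value. The difference was 0.08 ± 0.07 (SE) after TNF-α and -0.16 ± 0.07 in the knockdown. Of 16 listed genes of complement C1 and the contact system, 13 were measured, and neither fit called any in either comparison. At an unadjusted p under 0.05, 2 were higher in the knockdown and 1 higher after TNF-α. Of all 19698 genes, 726 and 364 were. The largest differences were 0.62 ± 0.38 for C1ra and 0.38 ± 0.11 for Kng1 in the knockdown, and 0.45 ± 0.13 for Bdkrb1, an inflammation-linked bradykinin receptor, after TNF-α. Kng1, with a mean of 6.10 over all arrays, lay below the first quartile of all transcript clusters (log2 6.41), where a signal may be near background. The median over the 13 genes was -0.02 in the knockdown.

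Serpina3n, a mouse relative of α1-antichymotrypsin and an acute-phase inhibitor, followed replicate number more than condition. Its signal was 7.43, 8.12 and 6.66 in unstimulated controls and 7.43, 8.17 and 6.29 after TNF-α, so array 2 was the highest and array 3 the lowest in both. The knockdown arrays were at 7.06, 6.94 and 6.54 and fell within the range of the controls. The differences were -0.11 ± 0.48 (SE) after TNF-α and -0.45 ± 0.48 in the knockdown, where the same-numbered pairs gave -0.37, -1.23 and 0.25. Leaving out 1 array moved the knockdown difference from -0.95 (without TNF-treated control array 3) to -0.01 (without TNF-treated control array 2). Serpina3n belongs to a cluster of near-identical copies, so its signal is uncertain.

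Serpinb2 encodes plasminogen activator inhibitor type 2, which inhibits urokinase and tissue plasminogen activator and is found largely inside cells. Its signal was 9.81, 8.61 and 10.21 in unstimulated controls, 11.82, 9.74 and 11.28 after TNF-α, and 10.11, 8.57 and 7.47 in TNF-treated knockdown cells. TNF-treated array 2 lay below unstimulated arrays 1 and 3, and knockdown array 1 lay above TNF-treated control array 2, so both pairs of groups overlapped. The order of means was 10.95 ± 1.08 in TNF-treated controls, 9.55 ± 0.83 in unstimulated controls and 8.72 ± 1.32 in knockdown cells (SD, n = 3), and neighbours in it overlapped. The TNF-α difference of 1.40 ± 0.74 (SE), 2.64-fold, was above 0 in every same-numbered pair, at 2.01, 1.13 and 1.07. The knockdown difference of -2.23 ± 0.74, 4.69-fold, was the lowest of all 19698 genes and was below 0 in every pair, at -1.71, -1.17 and -3.81. Neither fit called it. Leaving out 1 array gave 0.94 to 2.01 after TNF-α and -2.92 to -1.61 in the knockdown.

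The proteases and receptors around Serpinb2 were read from a list on plasminogen activation and thrombin, of which 19 of 20 genes were measured. None was called by limma in either comparison. At an unadjusted p under 0.05, 4 were higher and 1 lower after TNF-α, beside 364 higher and 241 lower of all 19698 genes. In the knockdown 2 were lower at that limit, beside 935 of all 19698 genes. The largest TNF-α differences were 0.74 ± 0.24 (SE) for Plaur, the urokinase receptor, 0.66 ± 0.25 for F3, the tissue factor that starts coagulation, and 0.54 ± 0.22 for Plau, urokinase itself. Neither fit called these 3. In the knockdown Plaur differed by -0.18, F3 by -0.04 and Plau by -0.03, and the median over the 19 genes was -0.01. F2r, the thrombin receptor PAR1, fell in the blocked fit, from 10.92, 10.92 and 10.99 to 10.54, 10.59 and 10.69 (difference -0.34, blocked limma adjusted p = 0.0162, without the block 0.0816). It was the 1 gene of the list that the blocked fit called, beside 2.33% of all genes called lower in the knockdown.

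Serpinb10, whose protein is called bomapin and has been described in blood-forming cells, lies beside Serpinb2. Its signal was 8.18, 8.58 and 8.19 in unstimulated controls, 8.96, 8.26 and 8.60 after TNF-α, and 6.88, 7.71 and 5.69 in the knockdown. The control groups overlapped, with means of 8.32 ± 0.23 and 8.61 ± 0.35, and the knockdown mean of 6.76 ± 1.02 (SD, n = 3) came from arrays that all lay below both. The knockdown difference was -1.85 ± 0.43 (SE), 3.60-fold, and the same-numbered pairs gave -2.08, -0.55 and -2.91. Array 2 gave the smallest of these. Knockdown array 3, at 5.69, lay below the first quartile of all transcript clusters (log2 6.41), where a signal may be near background. Without knockdown array 2 the difference was -2.32, and without knockdown array 3 it was -1.31. The TNF-α pairs, at 0.78, -0.32 and 0.41, did not share a sign.

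Serpinb8, an intracellular inhibitor of the proprotein convertase furin, is the next gene along. Its arrays were at 7.61, 8.09 and 8.18 in unstimulated controls, 7.64, 7.67 and 8.25 after TNF-α and 7.39, 7.46 and 7.33 in the knockdown. The 3 knockdown arrays lay close together (SD 0.06, against 0.34 in TNF-treated controls) and below all control arrays. The difference was -0.46 ± 0.19 (SE) in the knockdown, with pairs at -0.26, -0.21 and -0.91, and it became -0.26 without TNF-treated control array 3. After TNF-α it was -0.11 ± 0.19. Furin itself was at 10.40 to 10.61 in TNF-treated controls and 10.38 to 10.55 in knockdown cells.

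Serpinb6a is an intracellular serpin of clade B that inhibits cathepsin G and trypsin-like proteases. Its arrays were at 11.72, 11.71 and 11.84 in unstimulated controls, 11.70, 11.71 and 11.80 after TNF-α and 11.48, 11.68 and 11.64 in the knockdown. Knockdown arrays lay below all control arrays by a narrow margin, and the difference was -0.14 ± 0.07 (SE). Without knockdown array 1 it was -0.08. Serpinb6a has close copies on chromosome 13, so the share of its signal from them is uncertain.

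The chromosome 1 cluster holds 12 clade B serpins in the RefSeq order, of which 11 were measured. Serpinb2, Serpinb10 and Serpinb8 stand side by side at 1 end of it. By their means over all arrays, they were the 3 genes at or above the first quartile of all transcript clusters (log2 6.41). The 8 other measured genes, from Serpinb5 to Serpinb7, lay below that quartile, where a transcript may be near background, and their knockdown differences ran from -0.16 to 0.14. The chromosome 13 cluster holds 16, of which 12 were measured and 4 lay at or above the quartile: Serpinb6a, Serpinb6b, Serpinb9 and Serpinb9b.

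**Figure D2:**
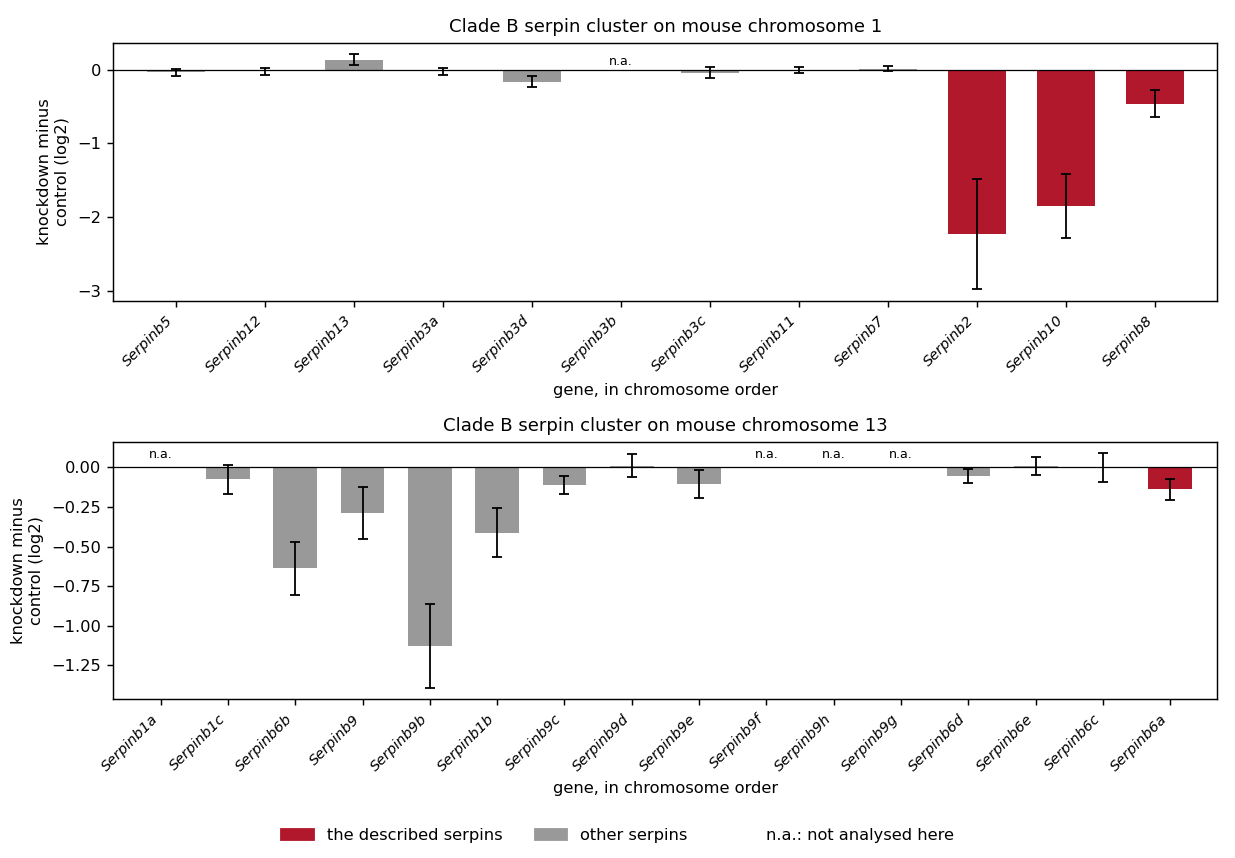
Knockdown minus control difference (log2, both TNF-treated; bars with ± 1 SE of the limma fit) of each clade B serpin in chromosome order, for the clusters on chromosomes 1 and 13. The vertical scales differ, and n.a. marks genes not analysed here. On chromosome 1 the 3 described serpins at the right reach -2.23, -1.85 and -0.46, and the 8 others lie between -0.16 and 0.14.

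Serpinb9b and Serpinb6b, on chromosome 13, were the serpins outside the 8 that a fit called. Serpinb9b is a paralog of the granzyme B inhibitor Serpinb9 and was at 9.07, 8.98 and 9.86 in TNF-treated controls and 8.02, 8.55 and 7.95 in the knockdown. All knockdown arrays lay below all TNF-treated control arrays. The difference was -1.13 ± 0.26 (SE), with an adjusted p of 0.167 by limma and 0.0475 with the replicate block. Serpinb6b, a paralog of Serpinb6a, was at 8.06, 7.88 and 7.86 and at 7.19, 7.68 and 7.02, again without overlap. Its difference was -0.64 ± 0.17 (limma adjusted p = 0.234, with the block 0.0339). Without all arrays numbered 1 the blocked limma adjusted p was 0.508 for Serpinb9b and 0.49 for Serpinb6b, and without all arrays numbered 3 it was 0.195 and 0.304. Serpinb9 differed by -0.29 ± 0.17 (limma adjusted p = 0.749), and paralogs in this cluster may share probe signal.

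In Serpinf1, Serpinb10, Serpinb8, Serpinh1, Serpinb9b and Serpinb6b alike, knockdown array 2 was the highest of its group and knockdown array 3 the lowest, which was also the order of Smarca4 in those arrays (10.64, 10.50 and 10.25 for arrays 2, 1 and 3). Serpinb2, Serping1, Serpina3n and Serpinb6a had other orders, as did Serpinb9 and Serpinb1b among the other serpins. The share of all genes with the Smarca4 order was not counted. On the first principal component over all genes, knockdown array 2 also stood nearest to the controls and knockdown array 3 furthest (4.0, 17.8 and 22.6 for arrays 2, 1 and 3). The order is therefore also that of the main axis over all genes and is not particular to these serpins. With 3 arrays the shared order stands as a description, and the part of residual Smarca4 in the serpin values was not tested.

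Over the 38 other serpins, limma called 0 in the knockdown. At an unadjusted p under 0.05, 4 were lower and 0 higher, beside 935 lower and 726 higher of all 19698 genes. The methods' t-test, applied to the knockdown with a difference past 0.3, passed 3, all lower, beside 1.46% of all genes. Those 3 were Serpinb9b, Serpinb6b and Serpinb1b, at -0.41 ± 0.16 (SE), and no other serpin was past 0.3 in either direction. The differences were below 0 for 21 and above 0 for 17. After TNF-α neither fit called any of the 38, and the differences ran from -0.09 to 0.20. At an unadjusted p under 0.05, 1 was higher, as were 1.85% of all genes. The largest were 0.20 for Serpina1c, a copy of α1-antitrypsin, 0.13 for Serpinb3d and 0.11 for Serpini1, which encodes neuroserpin. Of the 38, 29 lay below the first quartile, among them Serpina1c, Serpinb3d, Serpini1 and Serpinb1b, so small differences there may not be measurable.

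**Figure D3:**
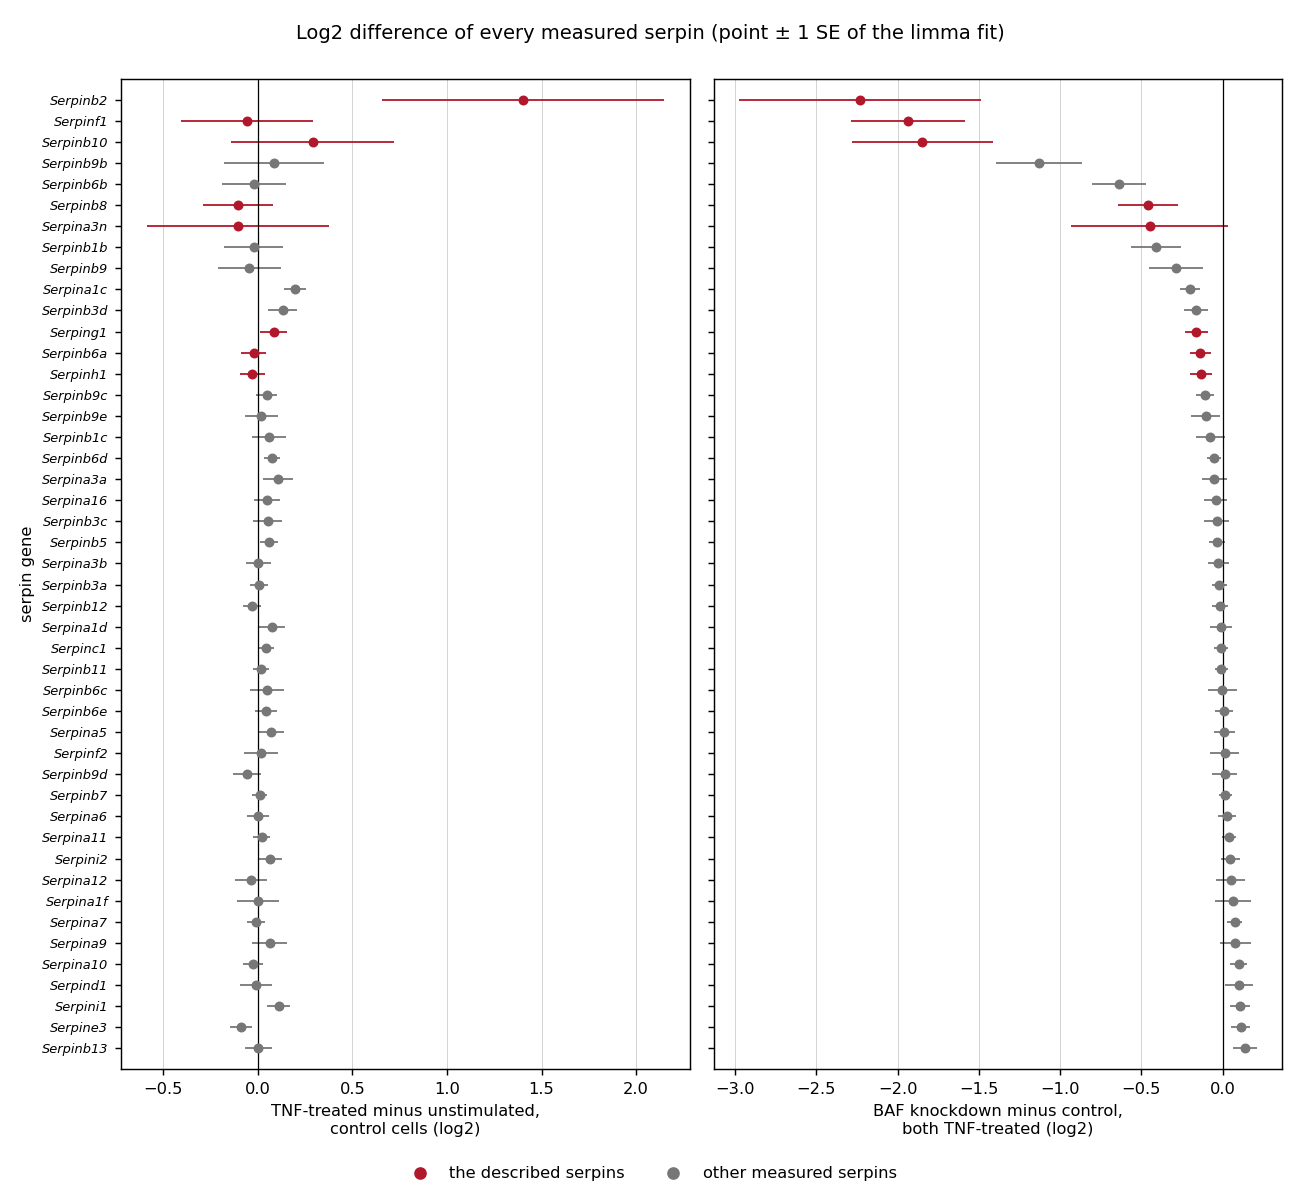
Log2 difference (point, ± 1 SE of the limma fit) of all 46 measured serpins after TNF-α in control cells (left) and in the knockdown (right), ordered by the knockdown difference. Red points are the 8 described serpins, chosen with these values known, and grey points the 38 others. Serpinb2 stands apart on the left at 1.40, and Serpinb2, Serpinf1, Serpinb10 and Serpinb9b pass -1 on the right.

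The spread between arrays of a group differed widely among the 8 serpins, and it sets how each difference can be read. The pooled SD within groups was 1.10 for Serpinb2, 0.71 for Serpina3n, 0.63 for Serpinb10, 0.51 for Serpinf1 and 0.27 for Serpinb8, at or above the 95.7th percentile of all genes. It was 0.08 to 0.09 for Serpinh1, Serping1 and Serpinb6a, near the median of 0.09 over all genes. Serpinb2 had the widest spread of the 8 in addition to the largest differences.

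Proteases that serpins meet inside cells or from leukocytes formed a list of 20, with 19 measured. limma called 0 in either comparison. At an unadjusted p under 0.05, 2 were higher and 1 lower in the knockdown, beside 726 higher and 935 lower of all 19698 genes. After TNF-α 0 passed that limit. The blocked fit called 2 of the 19 higher in the knockdown, beside 0.98% of all genes. Ctso, a cysteine cathepsin, rose from 6.73, 7.16 and 6.73 to 7.94, 8.17 and 8.87 (difference 1.45, blocked limma adjusted p = 0.0211). Ctsh, another cysteine cathepsin, rose from 8.29, 8.39 and 9.0 to 9.13, 8.90 and 9.67 (difference 0.67, blocked limma adjusted p = 0.0212). The Ctso groups did not overlap and the Ctsh groups did. The largest TNF-α differences were 0.24 for Casp8 and -0.13 for Ctsk, and the median knockdown difference of the list was -0.02.

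Protease inhibitors outside the serpin family formed a list of 28, with 27 measured. limma called 0 in either comparison. At an unadjusted p under 0.05, 2 were lower in the knockdown, beside 935 of all 19698 genes, and 0 passed after TNF-α. The blocked fit called 3 of the 27 lower in the knockdown, beside 2.33% of all genes. Slpi, a secreted inhibitor of leukocyte elastase, fell from 9.61, 9.08 and 9.5 to 8.64, 8.65 and 8.23 (difference -0.88, blocked limma adjusted p = 0.0154). Pi15, a secreted inhibitor of trypsin, fell from 9.25, 9.56 and 7.64 to 7.74, 8.09 and 6.36 (difference -1.42, blocked limma adjusted p = 0.00124). Itih2, a heavy chain of the inter-α-trypsin inhibitor, fell from 9.14, 9.56 and 8.46 to 8.25, 8.48 and 7.24 (difference -1.07, blocked limma adjusted p = 0.00134). Array 3 was the lowest of each group for Pi15 and Itih2, so the groups overlapped while the same-numbered pairs did not. The largest TNF-α differences were 0.27 for Slpi and 0.16 for Timp3, and the list's median knockdown difference was 0.00.

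**Figure D4:**
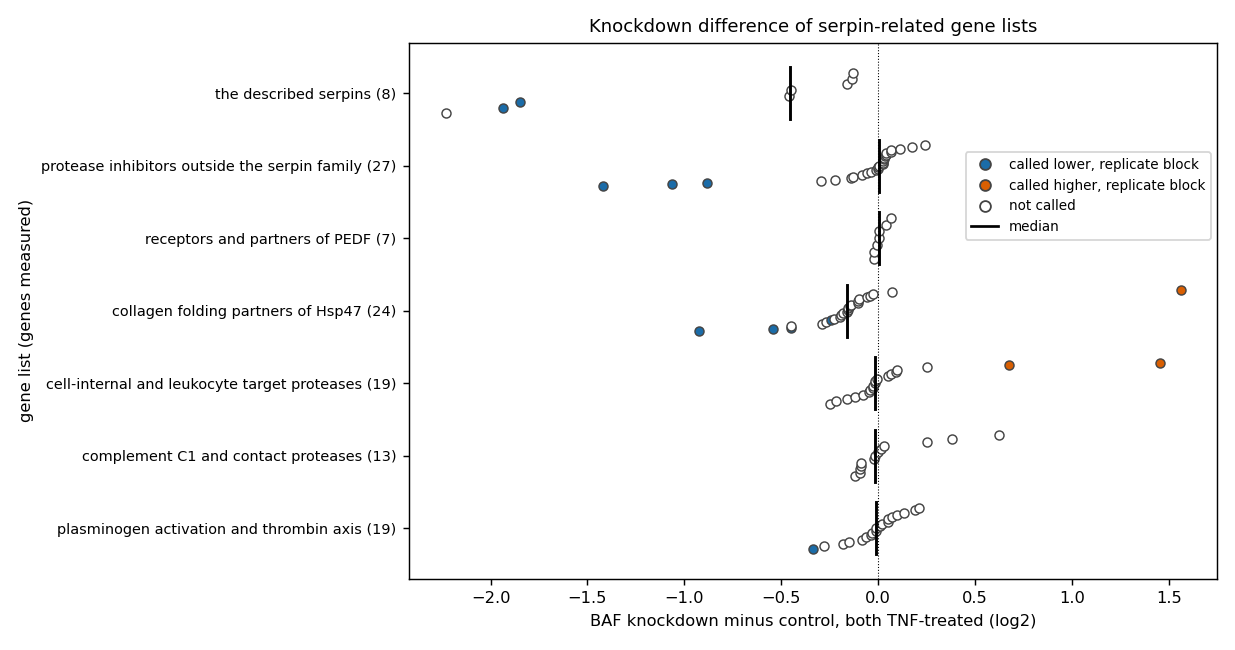
Knockdown minus control difference (log2, both TNF-treated) of each measured gene in the 8 described serpins and in 6 lists of related genes. Filled points were called by the fit with the replicate block, blue lower and orange higher, and black ticks are medians. The medians are -0.46 for the serpins, -0.16 for the collagen folding list and between -0.02 and 0.00 for the 5 others. The 8 serpins were chosen with these values known, so their median is not comparable with those of the lists. Over the 38 other serpins, which are not drawn, the median is -0.01.

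For each serpin the genes with the most similar pattern were those with the smallest root mean square difference from it over the 9 arrays, after centring each gene on its mean (log2 units). They were Mgst1 (0.274) and P2ry10b (0.281) for Serpinf1, whose own root mean square deviation was 1.02, and Nlrp2 and Tcim (both 0.330) for Serpinb10. Serpinb2 had no close match, since Ccl9, a chemokine, and Hcar2, the niacin receptor, still differed from it by 0.795 and 0.802 against its own deviation of 1.28. The differences of Ccl9 were 0.87 after TNF-α and -1.51 in the knockdown, and those of Hcar2 0.96 and -1.18. Serpina3n lay nearest to C4b (0.189), a complement component, and Pfkfb3 (0.191), and Serpinb8 to Tns1 (0.146) and Pmepa1 (0.153). Serpinh1 lay nearest to Lcmt1 and Tsn, Serping1 to Mettl17 and Rusc1, and Serpinb6a to Ftl1 and Bnip2, at 0.0274 to 0.0446. These last 3 serpins varied so little, at 0.10 or less about their means, that a close match says little of them. The measure is a description over 9 arrays that share treatments and replicate numbers.

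A further 5 transcript clusters carried several serpin symbols each and name no single gene. Of these, 2 cover the Serpina1 copies and 3 the Serpinb9d to Serpinb9g copies. Their group means were 5.92 to 7.55 in TNF-treated controls and 5.92 to 7.55 in the knockdown.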

How the data were processed

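Transcript levels were measured in 9 samples of 3T3 fibroblasts on Affymetrix mouse Gene 1.0 ST arrays. The authors deposited log2 values that, per the labels, they had obtained by RMA, which corrects background, quantile normalises arrays and summarises probes by median polish. For RMA, software and version are not given in the sources used here. Array medians ran from 7.77 to 7.83 over 27024 transcript clusters, and arrays have no read depth, so their number limits the precision. Exact ties between arrays occurred in 3 of the 8 serpins.

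The platform's annotation gave 1 symbol to 21319 clusters, several to 1430 and none to 4275. The cluster with the highest mean was used for the 930 genes with more than 1, which left 19698 genes. Groups were taken from the labels. limma 3.58.1 in R 4.3.3 fitted 1 mean per group to all 9 arrays (6 residual degrees of freedom, lmFit and eBayes, two-sided). Benjamini-Hochberg adjustment ran over all genes, with calls at an adjusted p under 0.05. SEs come from this fit unless the block is named. Scripts were tested on simulated data.

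The 3 groups carry the same replicate numbers, and the methods place replicates on different days without saying that a number marks a shared day. Deviations from group means correlated at 0.21 to 0.724 between same-numbered arrays and -0.566 to 0.0111 otherwise. Each same-numbered correlation was over 0.1, so the numbers were taken as pairs, and a second fit used the replicate number as a block.

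The members, the gene lists and the rule for named genes were chosen with earlier results of these data known. Named are the members, other serpins called by either fit or with the 3 largest differences in a comparison, list genes called by either fit or otherwise with the largest differences, and the 2 genes most like each member. Furin, Serpinf2, Serpinb9 and the knockdown values of Plaur, F3 and Plau were added after values were seen. Alternatives were the block, leaving out each array, array weights, a variance trend, median centring, a filter on dim genes, the mean over a symbol's clusters and the Student's test that the methods name for induced genes, applied here to both comparisons. Promoter windows came from RefSeq, build GRCm38.p6. No coordinates of the array's clusters are printed, since their build is unknown here.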

Additional observations from a re-analysis of the deposited data

How the results depend on the processing

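With 3 arrays a group, calls depended on the model and on single arrays. With the replicate block, genes called rose from 27 to 78 after TNF-α and from 27 to 652 in the knockdown, members called in the knockdown from 0 to 2 and other serpins called from 0 to 2. Leaving out 1 array gave 9 to 28 genes after TNF-α (9 without TNF-treated control array 1) and 6 to 154 in the knockdown (6 when TNF-treated control array 3 was left out, 154 when knockdown array 2 was). It gave 0 to 2 members and 0 to 1 other serpins called in the knockdown, those above 0 without knockdown array 2, where the members were Serpinf1 and Serpinb10 and the other serpin was Serpinb6b. Array weights gave 41 and 62 genes. The t-test that the methods name for induced genes, applied to both comparisons with the size limits of 0.35 and 0.3, gave 115 and 433 genes, 2 members and 3 other serpins (1.46% of all genes were lower by it), and after Benjamini-Hochberg adjustment 1 and 0 genes. An alternative chosen after seeing the data, the replicate block without all arrays of 1 number, gave after TNF-α 0 genes without number 1, 76 without number 2 and 18 without number 3. In the knockdown it gave 0 without number 1, 648 without number 2 and 100 without number 3, with 2 members and 2 other serpins called without number 2 and 0 of either without number 1 or 3. The knockdown difference of Serpinb10 was -2.50 under the block without arrays numbered 2. The cause of these shifts in counts was not tested, beyond fewer arrays where arrays were left out.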
